A study of Mus musculus with 126 samples.

Results

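Calb1, Pax6, Bhlhe41 and Smco1 are 4 of the 43253 genes in a table of TPM (a transcript level scaled by transcript length and to a fixed sum per cell) of single cells from the mouse embryonic brain. The genes were chosen by name and selected on their measured levels here, with the values in these same cells already known, so their levels, differences and correlations are descriptions and carry no test. Every cell came from the brain of a C57BL/6J embryo at E16.5, was sorted as CD45+ F4/80+ CD11b+ Ly6C-, and was captured on a Fluidigm C1 circuit. No transgene, mutation or treatment is named, and the labels call all of the cells microglia. The labels name no animal, chip or date, so the cells form 1 group with no replicates, the SD values below are spreads over cells, and intervals of shares cover counting error only.

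Calb1 encodes calbindin, a cytoplasmic calcium buffer of the EF-hand family that is widely used as a marker of neuron types. Pax6 is a paired-box and homeobox transcription factor of the eye, the forebrain progenitors and the pancreatic islet. Bhlhe41, also called Dec2, is a basic helix-loop-helix repressor of the circadian clock and is also known in tissue macrophages. Smco1 encodes a predicted membrane protein with a single pass and coiled coils. Macrophages of the brain comprise microglia in the parenchyma and the non-parenchymal macrophages of the meninges, vessels and choroid plexus. Sox2, Hes5, Nes, Fabp7 and Slc1a3, by contrast, are genes of neural progenitors and radial glia: a stem cell transcription factor, a Notch target, an intermediate filament, a fatty acid binding protein and a glutamate transporter.

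In the GENCODE M21 annotation of GRCm38, Calb1 lies at chr4:15881264-15908064 on the plus strand, Pax6 at chr2:105668900-105697364 on the plus strand, Bhlhe41 at chr6:145858243-145865558 on the minus strand and Smco1 at chr16:32271468-32274781 on the plus strand, and all are protein-coding. Each gene has an annotated transcript with a long run of 1 base, adenine for Calb1 and Pax6 and thymine for Bhlhe41 and Smco1. These runs were looked up after the levels had been seen, and are shown because they are a feature of the genes that the choice of members did not use. The windows below are 30 bases on the transcript strand, starting 8 bases before the run, from the GENCODE M21 transcripts, and capitals mark the bases of the run that fall in the window.
Calb1: cacatcttAAAAAAAAAAAAAAAAAAAAAA
Pax6: caaaaaccAAAAAAAAAAAAAAAAAAAAAA
Bhlhe41: aacattacTTTTTTTTTTTTTTTTTTTTTT
Smco1: agagtacaTTTTTTTTTTTTTTTTTTggtt

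The Calb1 run is 32 bases long (chr4:15895760-15895791) and lies in an exon of transcripts annotated as retained introns. It is intronic in the sole protein-coding transcript, whose longest run of adenine or thymine is 9 bases. The Pax6 run is 27 bases long (chr2:105675887-105675913), in the 5′ UTR of 5 of the 11 protein-coding transcripts and intronic in 3 of the others. The Bhlhe41 run of 39 bases (chr6:145862019-145862057) and the Smco1 run of 18 bases (chr16:32274540-32274557) lie in 3′ UTRs. A run of at least 25 bases was present in 518 of the 39443 genes of the table that matched a GENCODE symbol (1.31%), and one of at least 18 bases in 1806 (4.58%). Calb1, Pax6 and Bhlhe41 pass the first length, and Smco1 the second alone. TPM values do not show where in a transcript the reads fell, and the part of these runs in the levels was not tested.

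The cells were checked against a core macrophage list, which does not separate microglia from other brain macrophages. All 10 genes of the list were detected at 10 TPM in no fewer than 63 cells, beside 2.92% of all genes. C1qb fell short of 10 TPM in 1 cell, Tyrobp in 3 and Csf1r in 6. The genes of the sorted surface proteins were lower: Emr1 (F4/80) reached it in 99 cells, Ptprc (CD45) in 97 and Itgam (CD11b) in 66. The number of genes at 1 TPM or more per cell ran from 379 to 7061 (median 4850.5), with 13 cells under 3000, 55 from 3000 to under 5000 and 58 at 5000 or more. The mitochondrial share, the percent of TPM in the 37 genes named mt-, ran from 0.00989 to 69.9% (median 6.49%). It was under 10% in 100 cells and at least 10% in 26, 10 of which had fewer than 3000 genes. Read depth is unknown, and no pair of cells held identical values.

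Calb1, Bhlhe41 and Pax6 were detected at 10 TPM in nearly every cell and Smco1 in fewer, and the median level was highest for Calb1 and lowest for Smco1. Calb1 had a median of 612 TPM (quartiles 494 and 897), and its median percentile among the genes detected in a cell was 92.4. It reached 10 TPM in 97.6% of the cells (exact Clopper-Pearson 95% interval 93.2 to 99.5%), and 1000 TPM in 27, and was listed at 0 in 3. Bhlhe41 had a median of 140.8 TPM (quartiles 73.3 and 345) and reached 10 TPM in 99.2% (95.7 to 99.98%). Pax6 had a median of 47.3 TPM (quartiles 26.9 and 88.3) and reached 10 TPM in 93.7% (87.9 to 97.2%), but 100 TPM in only 27. Smco1 had a median of 16 TPM (quartiles 8.15 and 41.5). It reached 1 TPM in 97.6% of the cells and 10 TPM in 83 cells, 65.9% (56.9 to 74.1%). Genes at 10 TPM or more in at least as many cells as Smco1 made up 1.53% of the table, against 0.206% for Pax6, 0.0786% for Calb1 and 0.0486% for Bhlhe41. So few genes of the table were detected as widely, but the members were chosen knowing this and the shares are given as a description.

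On the log2(TPM + 1) scale, the mean level was 9.39 ± 2.17 for Calb1, 7.39 ± 1.79 for Bhlhe41, 5.70 ± 1.91 for Pax6 and 4.85 ± 3.03 for Smco1 (SD over all cells). Each step in this order is about the size of the SD or less, so the spreads of neighbours overlap. Within a cell the order was steadier. Calb1 was exceeded by Pax6 in 6 cells, by Smco1 in 7 and by Bhlhe41 in 14. Pax6 exceeded Bhlhe41 in 18 cells and Smco1 did so in 15, and Pax6 was above Smco1 in 98 cells and below it in 27. All 4 genes were at 10 TPM or more together in 78 cells, 3 of them in 43 and 2 in 4. The remaining cell, the one with 379 genes, listed all 4 at 0.

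The tails were long. The highest Calb1 value, 514225 TPM, was 51.4% of all TPM in a cell with 1545 genes and a mitochondrial share of 0.528%, and that cell also held the highest Smco1 value, 53370 TPM. The next Calb1 value was 85679 TPM, in a cell with 1539 genes and a mitochondrial share of 65.9%. Another extreme was a cell with 2037 genes and a mitochondrial share of 33.5%, which held the highest Pax6 (9464 TPM) and Bhlhe41 (15842 TPM) values beside 19254 TPM of Smco1 and 5104 TPM of Calb1. It was the only cell in which all 4 genes passed 1000 TPM, while 94 cells had none of them at that level. Together the 4 genes took a median of 0.0968% of a cell's TPM, and more than 1% in 7 cells. Because TPM sums to a fixed total, such values lower every other gene of the same cell.

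Levels varied most in the cells with few genes detected. In the 13 cells under 3000 genes, Calb1 ran from 0 to 514225 TPM (median 121.45) and Smco1 from 0 to 53370 TPM (median 2216). In the same cells Pax6 ran from 0 to 9464 TPM (median 153) and Bhlhe41 from 0 to 15842 TPM (median 1018). All 3 cells with Calb1 listed at 0 were among these 13. Their members did not move together: the cells with 1461 and 1784 genes listed Calb1 at 0 but held 7792 and 12830 TPM of Bhlhe41 and 9360 and 11578 TPM of Smco1.

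In the 58 cells with at least 5000 genes the ranges were narrower. There Calb1 ran from 398 to 4621 TPM (median 584), Bhlhe41 from 42.7 to 779 TPM (median 92.6), Pax6 from 0 to 464 TPM (median 39.9) and Smco1 from 0 to 972 TPM (median 15.7). The 55 cells with 3000 to under 5000 genes had medians of 649 TPM for Calb1, 191 for Bhlhe41, 48 for Pax6 and 12.1 for Smco1. Pax6 was listed at 0 in 3 gene-rich cells, with 5057, 6201 and 6677 genes, and Smco1 in 1, with 6022 genes, so a value of 0 was not limited to the poorest cells. Around the line of 3000 genes, the cell just under it, with 2969 genes, held 9950 TPM of Calb1, 867 of Pax6, 953 of Bhlhe41 and 3006 of Smco1. The cell just above it, with 3426 genes, held 18883 TPM of Calb1, 1637.5 of Pax6, 17.8 of Bhlhe41 and 3022 of Smco1, and the mitochondrial shares of these cells were 49% and 56.1%.

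**Figure D1:**
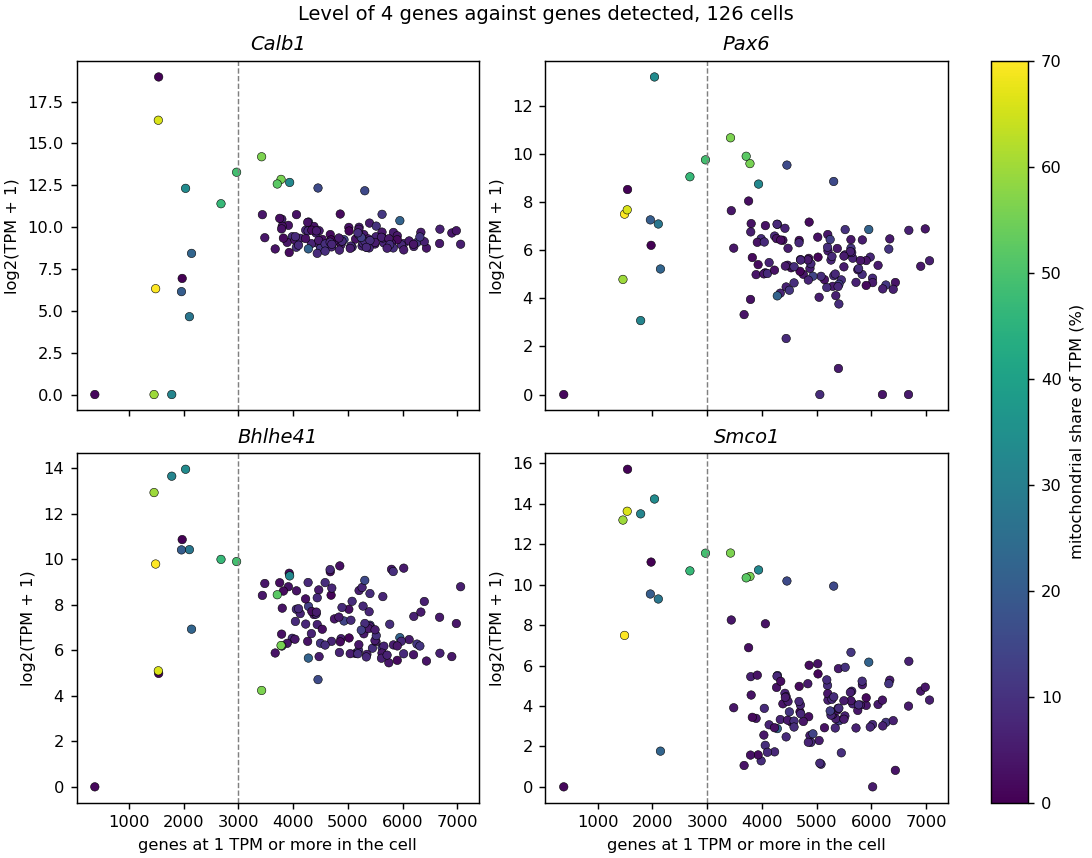
Each point is a cell, with the number of genes at 1 TPM or more on the x axis, log2(TPM + 1) of Calb1, Pax6, Bhlhe41 or Smco1 on the y axis and the mitochondrial share in percent as colour; the dashed line marks 3000 genes. Right of the line most Calb1 values form a band, with some cells above it at up to 18883 TPM. Left of the line Calb1 spreads from 0 to 514225 TPM, and Smco1 is high in most of the cells.

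Between cells under 3000 genes (n = 13) and all others, Smco1 was higher by 5.89 on the log2 scale (10.13 ± 4.70 against 4.24 ± 2.07), Bhlhe41 by 1.96 (9.15 ± 3.96 against 7.19 ± 1.23) and Pax6 by 1.31 (6.88 ± 3.25 against 5.56 ± 1.66). For Smco1 alone the difference exceeded the SD of both sides. Of the 4589 genes at 10 TPM or more in at least 25 cells, 0.458% were higher by at least 1 in the cells with few genes and 89.6% were lower by at least 1, with a median difference over all of them of -2.02. Smco1 ranked 1st of the 4589 in this difference, Bhlhe41 9th and Pax6 20th. The cells were split by the number of genes at 1 TPM or more, so lower means of most genes on the gene-poor side follow from the split. The members were chosen with their wide detection known, so these ranks are a description. Calb1 was lower by 1.48 (difference -1.48, 8.07 ± 6.19 against 9.54 ± 0.95), and single cells moved it: it was -0.81 without the cell with 379 genes and -2.39 without the cell in which Calb1 took 51.4% of TPM. With the line at 4000 genes the Calb1 difference was 0.046, so it has no settled direction.

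Medians of all 4 genes were also higher in the cells with the largest mitochondrial share. In the 16 cells with a share of at least 20%, the medians were 2020 TPM for Calb1 (0 to 85679), 192 for Pax6 (7.43 to 9464), 749 for Bhlhe41 (17.8 to 15842) and 1496 for Smco1 (2.40 to 19254). In the 100 cells with a share under 10% they were 601, 43.2, 140.8 and 14.5 TPM. For Pax6 and Smco1 the quartiles of the groups did not meet (Pax6 95.7 to 800 TPM against 26.4 to 78.8, Smco1 513 to 4606 TPM against 7.0 to 25.5), although the ranges overlapped, and for Calb1 and Bhlhe41 the quartiles overlapped. On the log2 scale the differences at this split were 5.68 for Smco1, 2.39 for Pax6, 1.80 for Bhlhe41 and 0.006 for Calb1, whose mean thus did not move with its median.

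Between the 26 cells at 10% or more and the 100 below, Smco1 differed by 4.11 (8.11 ± 3.93 against 4.0 ± 2.04), Pax6 by 1.88 (7.19 ± 2.44 against 5.31 ± 1.54), Bhlhe41 by 0.93 (8.13 ± 2.66 against 7.20 ± 1.45) and Calb1 by 0.32 (9.65 ± 3.86 against 9.32 ± 1.46). Smco1 and Pax6 were thus above a difference of 1, which 0.893% of the 4589 genes were in this direction and 52.6% in the other. When only cells with at least 3000 genes were compared, the Bhlhe41 difference was -0.50 and that of Calb1 was 1.39. In the 6 cells with at least 3000 genes and a share of at least 20%, Calb1 had a median of 6316 TPM (416 to 18883), Pax6 604 (16.2 to 1637.5) and Smco1 1321 (6.36 to 3022), but Bhlhe41 83.05 (17.8 to 615). Counting 7 genes of the mitochondrial copy on chromosome 1 with the share put 53 cells at 10% or more, and the differences of Smco1 and Pax6 were then 1.37 and 0.74.

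In the 97 cells with at least 3000 genes and a share under 10%, the genes were still there. Calb1 ran from 345 to 1761 TPM (median 602), Bhlhe41 from 42.7 to 835 TPM (median 141), Pax6 from 0 to 264 TPM (median 42.4) and Smco1 from 0 to 304 TPM (median 14.1).

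The other neural genes were rare in these cells. Sox2 and Hes5 were listed at 0 in every cell. Taking 3 cells as the limit that a count of 0 allows, up to 2.38% of cells could be listed above 0, for counting error only and at an unknown depth. Nes reached 10 TPM in 10 cells (highest 154 TPM), Fabp7 in 7 (highest 3826 TPM) and Slc1a3 in 12 (highest 375 TPM). No cell held 2 of the 5 genes at 10 TPM, so 29 cells had 1 and 97 had none. Of 12 progenitor genes, 5 reached 10 TPM in any cell and 1, Dbi, in at least 25 (62 cells). Of 20 genes of intermediate progenitors and neurons, 5 reached it in any cell and 0 in at least 25. Tubb3, Eomes and Neurog2 were listed at 0 throughout. Of all genes, 42.5% reached 10 TPM in any cell and 10.6% in at least 25. The counts of the 12 progenitor genes were near these shares.

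Levels of the 4 genes differed between cells with and without a neural gene by less than the spread over cells. Calb1 had a median of 580 TPM in the 29 cells and 638 in the 97, Pax6 46.3 and 47.5, Bhlhe41 140.5 and 141, and Smco1 15.5 and 17.6. The differences in mean log2 level, 29 minus 97 cells, were 0.02 for Calb1 (9.40 ± 1.44 against 9.39 ± 2.35), -0.23 for Pax6 (5.52 ± 1.95 against 5.75 ± 1.90), 0.10 for Bhlhe41 (7.47 ± 1.52 against 7.37 ± 1.87) and -0.45 for Smco1 (4.50 ± 2.48 against 4.95 ± 3.18). Every one of them was smaller than the SD of either side. No member passed a difference of 1, against 7.87% of the 4589 genes that were higher by at least 1 and 4.58% that were lower, with a median difference of 0.10. By gene, Pax6 had a median of 34.5 TPM in the 10 cells with Nes, 48 in the 7 with Fabp7 and 56.6 in the 12 with Slc1a3, and Calb1 had 544, 543 and 671 TPM. The summed TPM of the 12 progenitor genes had a median of 112.2 in the 29 cells (12.6 to 3836) and 49.4 in the 97 (0 to 2365). The 12 genes include those that define the 29 cells, so a sum of at least 10 TPM there was fixed by the grouping. Over all cells, the Spearman correlations between a member and Nes, Fabp7 or Slc1a3 lay between -0.09 and 0.14, too weak in values this sparse to be read as a relation.

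The cells were then grouped by a clustering that left out the 4 genes, every gene of the lists used here and the mitochondrial genes. By a list of 15 microglia markers, 2 clusters with 57 cells were called microglia-like, and by a list of 16 markers that includes Mrc1 and Lyve1, 1 cluster of 48 cells was called non-parenchymal macrophage-like. The mean of the matching list was the higher one in 56 of the 57 and 44 of the 48 cells, though no microglia marker was among the 10 leading genes of either microglia-like cluster. The 379-gene cell was not clustered, and 20 cells in another cluster stayed unnamed because both marker lists were lower in it than in the other cells. These names are rebuilt from the table and may differ from the authors'.

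All 4 genes were present in both named classes. The median of Calb1 was 608 TPM in the microglia-like class and 552 TPM in the non-parenchymal class, that of Pax6 43.9 and 35.9, Bhlhe41 189 and 92.1, and Smco1 16.2 and 10.8. The differences in mean log2 level, microglia-like minus non-parenchymal, were 0.22 for Calb1 (9.42 ± 0.54 against 9.19 ± 0.45), 0.43 for Pax6 (5.48 ± 1.29 against 5.05 ± 1.44), 0.70 for Bhlhe41 (7.50 ± 1.22 against 6.80 ± 0.96) and 0.55 for Smco1 (4.02 ± 1.39 against 3.47 ± 1.28). Every one was smaller than the SD of either class, and no member passed 1, which 8.04% of the 4589 genes did upwards and 20.2% downwards. With cells split by which marker list had the higher mean, the differences were -0.14, 0.19, 0.67 and 0.79 in the same order. That of Calb1 thus changed sign. Of the 29 cells with a neural gene, 20 were among the 57 microglia-like cells, 5 among the 48 non-parenchymal macrophage-like and 4 among the 20 unnamed. The comparison by neural gene was thus not balanced by class. Without the unnamed cluster, its differences were 0.07 for Calb1, -0.23 for Pax6, 0.41 for Bhlhe41 and 0.01 for Smco1.

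The unnamed cluster held the highest values. Its 20 cells had a median of 2826.5 genes (1461 to 5310) and a median mitochondrial share of 32.2% (0.00989 to 69.9%). In the cluster, 11 cells were among the 13 under 3000 genes. Smco1 ran from 42.7 to 53370 TPM in it (median 1496) and from 0 to 116.9 TPM in the named clusters (median 13.7), with little overlap. Pax6 had a median of 286 TPM against 40.6, Bhlhe41 576 against 131.5 and Calb1 3661 (0 to 514225) against 600 (344 to 1761). The differences in mean log2 level were 6.97 for Smco1 (10.74 ± 2.48 against 3.77 ± 1.36), 2.86 for Pax6 (8.15 ± 2.18 against 5.29 ± 1.37), 1.67 for Bhlhe41 (8.86 ± 2.90 against 7.18 ± 1.16) and 0.95 for Calb1 (10.26 ± 4.90 against 9.31 ± 0.51). This comparison was added after the values had been seen, so the count of 3 members above 1, beside 0.893% of all genes upwards and 80.7% downwards, is a description. The 5 highest cells of each member were all in this cluster. The summed TPM of the 10 core macrophage genes had a median of 2822 in the unnamed cells (134 to 27738) and 14131 in the named ones (5399 to 28208), and that of the 12 progenitor genes 2.80 (0 to 3836) against 112.9 (0 to 1433), while Sox2 and Hes5 were at 0 in both. Of the 12 progenitor genes, Dbi alone reached 10 TPM in at least 25 cells. The median of Dbi was 45.65 TPM in the named cells and 0 in the unnamed ones. The part of gene number, mitochondrial share and macrophage content in the levels of the 4 members was not tested. In such cells these traits cannot be told apart.

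**Figure D2:**
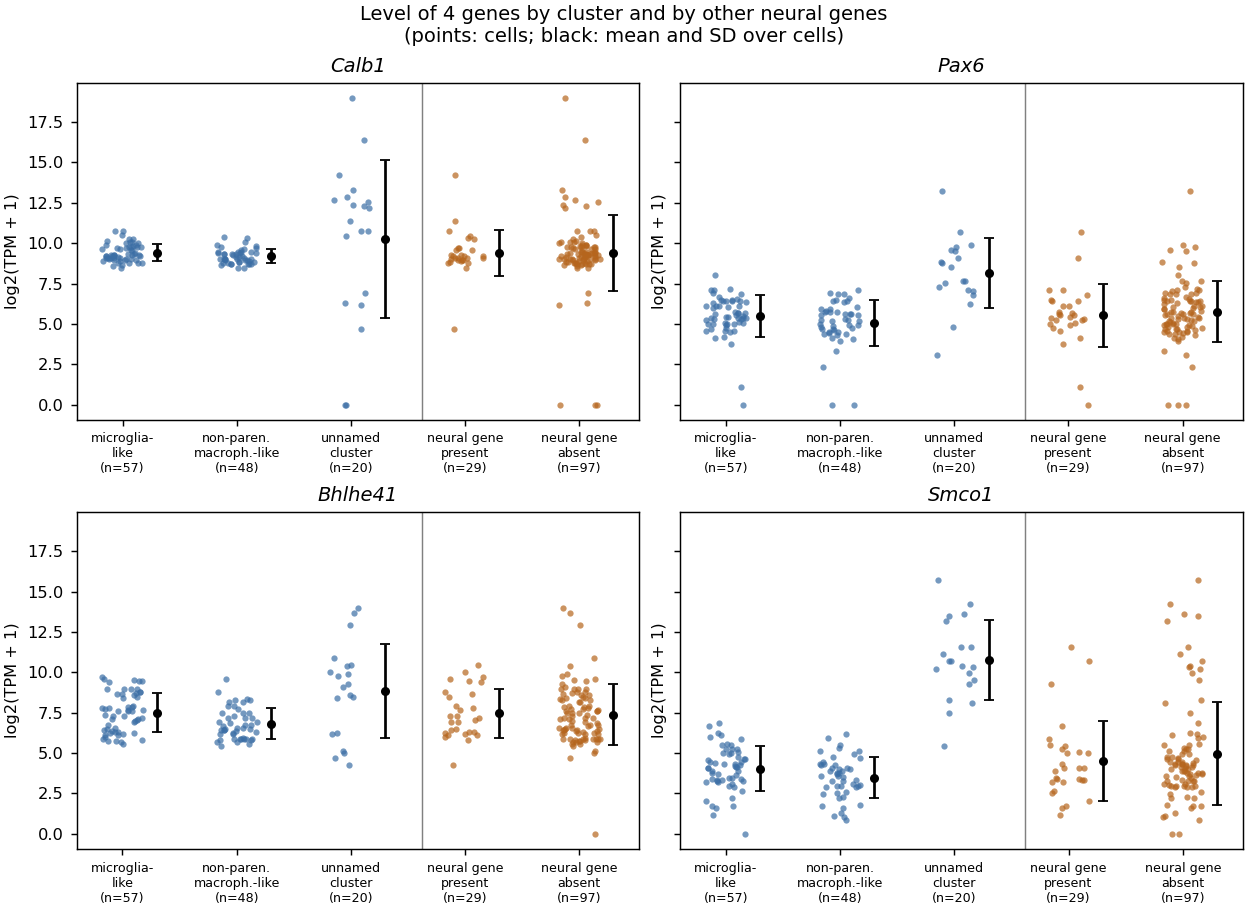
Points are cells, with log2(TPM + 1) of each gene on the y axis, grouped by cluster (57 cells microglia-like, 48 cells of the non-parenchymal class, 20 cells unnamed) and by a neural gene at 10 TPM or more (29 cells with, 97 without); black marks are the mean and SD over cells. The 2 named classes and the 2 neural groups overlap for every gene. For Bhlhe41 the median is 189 TPM in the microglia-like class and 92.1 TPM in the non-parenchymal class. The unnamed cluster is wider for Calb1 and higher for Smco1.

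Calb1, Pax6 and Smco1 varied together from cell to cell, and Bhlhe41 varied apart from them. Over all cells the Spearman correlation was 0.67 for Calb1 with Pax6, 0.57 for Calb1 with Smco1 and 0.66 for Pax6 with Smco1. In the 57 and 48 cells of the named classes together these were 0.67, 0.67 and 0.56, about as large without the cells of extreme values. Bhlhe41 had correlations of -0.09 with Calb1, 0.21 with Pax6 and 0.20 with Smco1. With the number of genes detected, the correlation was -0.11 for Calb1, -0.31 for Pax6, -0.30 for Bhlhe41 and -0.19 for Smco1, and with the mitochondrial share it was between -0.07 and 0.17 for all of them. In the named classes the correlation with genes detected was -0.07, -0.12, -0.29 and 0.22 in the same order, so that of Smco1 changed sign, and with the mitochondrial share it was -0.28, -0.13, -0.07 and -0.14. The cells share library chemistry, an unknown depth and the fixed sum of TPM, so these values describe this table.

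**Figure D3:**
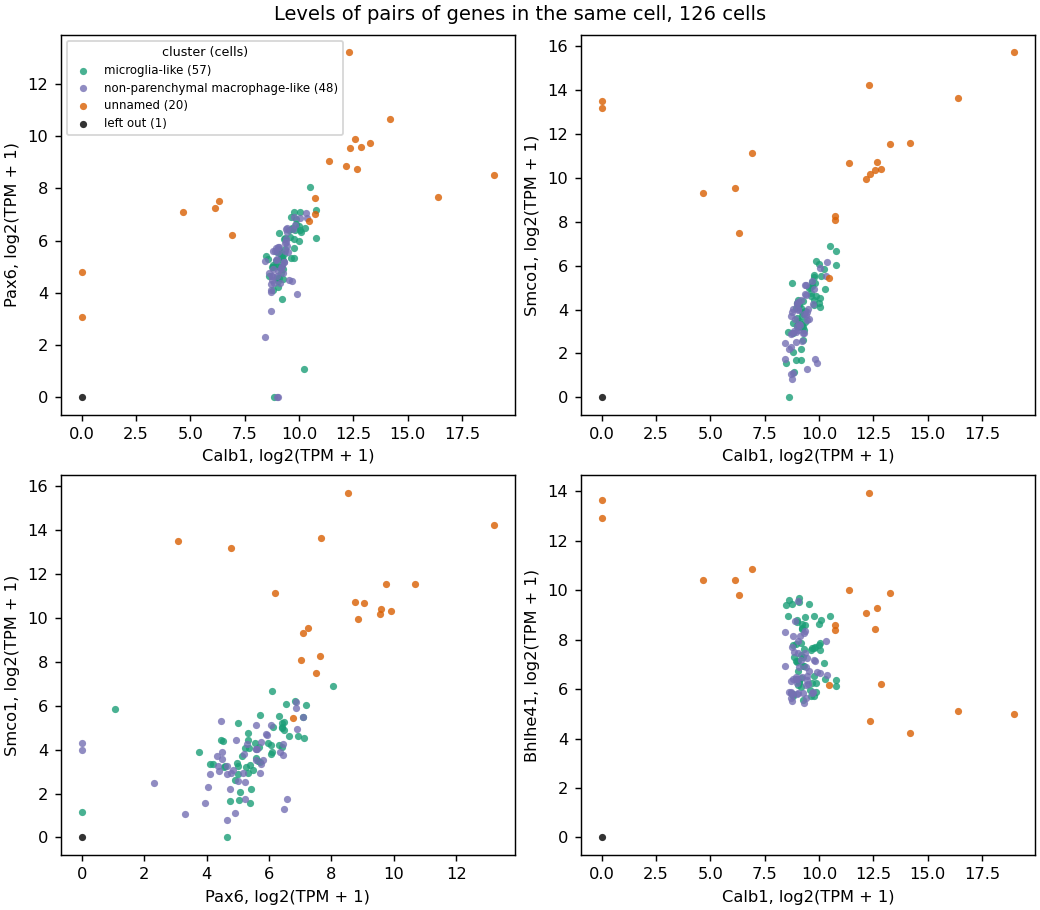
Each point is a cell, coloured by cluster, with log2(TPM + 1) of 1 gene on each axis, for Calb1 with Pax6, Calb1 with Smco1, Pax6 with Smco1 and Calb1 with Bhlhe41. In the named clusters the first 3 pairs slope upward and the last does not, and most of the unnamed cells lie outside the range of the named ones, though some fall among them.

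Among 4565 genes, those most like each member over all cells were compared by Spearman correlation. For Calb1 they were RP23-411L6.3 (0.80), Pax6 (0.67), Mir124-2hg (0.67), RP23-428H16.1 (0.59) and Zfp260 (0.58), and the least alike were Gm20390 (-0.44) and Dbnl (-0.41). For Pax6 they were Calb1 (0.67), Smco1 (0.66), RP24-286D13.2 (0.57), Prr15 (0.49) and Gm5766 (0.47), with Arhgdib and P4ha1 (both -0.49) at the other end. For Smco1 they were Pax6 (0.66), RP24-286D13.2 (0.64), Gm5766 (0.58), Acad12 (0.57) and Calb1 (0.57), with the ribosomal protein gene Rpl23a (-0.59) and the respiratory chain gene Cox6c (-0.58) least alike. Bhlhe41 had no close match, its nearest being Prr15 (0.30), Gm22369 (0.26), Asph (0.26), Pmepa1 (0.25) and Il10ra (0.24), and RP23-411L6.3 (-0.40) and Gmnn (-0.36) the least alike. A correlation of at least 0.4 was reached with Calb1 by 38 genes (0.832%), with Smco1 by 12 (0.263%), with Pax6 by 9 (0.197%) and with Bhlhe41 by 0.

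Calb1 was also one of the steadiest genes among cells with many genes detected. Of 647 genes other than mitochondrial ones that were at 10 TPM or more in at least 83 cells, Calb1 had the 7th lowest SD of log2 level in the 58 cells with at least 5000 genes (0.60, against a median of 2.23 over these genes). Bhlhe41 ranked 50th (1.14), Smco1 129th (1.55) and Pax6 143rd (1.62). By the SD over all cells the order differed, with Bhlhe41 19th, Pax6 31st, Calb1 67th and Smco1 319th. The 10 steadiest genes were Zfp260, Prtg, RP23-411L6.3, Prr15, Rps29, Mir124-2hg, Calb1, Actb, Tmsb4x and Gm5766. Of the 9 that matched a GENCODE symbol, 7 had a run of at least 25 adenine or thymine bases in a transcript, the exceptions being Rps29 and Tmsb4x. Of the 619 matched genes at 10 TPM or more in at least 83 cells, 44 had such a run (7.11%), and the 10 genes were picked out after their values had been seen.

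Genes with long runs were detected more widely over the whole table. Of the 30527 genes whose longest run was 9 bases or fewer, 6.96% reached 10 TPM in at least 25 cells, against 20.2% for 10 to 14 bases, 28.4% for 15 to 19, 33.5% for 20 to 24, 37.4% for 25 to 29 and 34.9% for 30 or more. At 83 cells, the number for Smco1, the shares were 1.07, 2.35, 3.83, 5.07, 7.86 and 10.1%. The median length of the longest transcript was 923 bases in the first class and between 3579 and 4298 in the others, and the part of length in these shares was not tested. Of the 518 genes with a run of at least 25 bases, 44 (8.49%) reached 10 TPM in at least 83 cells. The share was 1.57% over all matched genes.

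**Figure D4:**
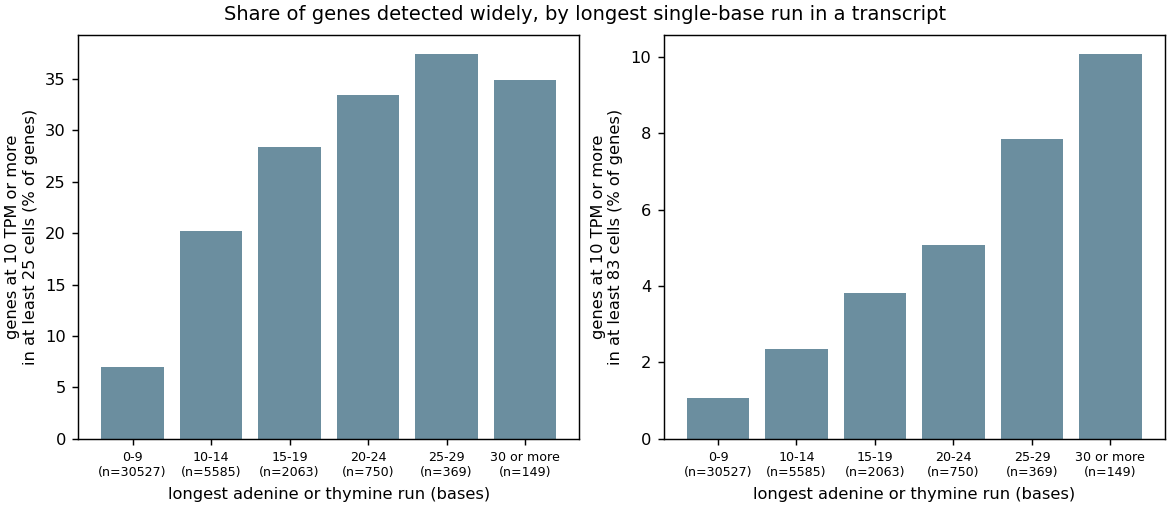
Bars give the percent of genes at 10 TPM or more in at least 25 cells (left) and at least 83 cells (right) by the longest run of adenine or thymine in any GENCODE M21 transcript of the gene, with the number of genes under each bar. The share is lowest in the class of 0 to 9 bases in both panels, and on the right it is highest at 30 bases or more (10.1%).

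Of 12 genes next to the members that were in the table, 8 reached 10 TPM in any cell and 0 in at least 25, beside 42.5% and 10.6% of all genes. Pax6os1, an antisense transcript that overlaps Pax6 by 1431 bases, was listed at 0 in all cells. Elp4, on the other strand with its nearer end 3663 bases after Pax6, reached 10 TPM in 21 cells. Decr1 beside Calb1 reached it in 12 cells, Rassf8 and Sspn beside Bhlhe41 in 4 and 0, and Wdr53 and Rnf168 beside Smco1 in 8 and 9. Gm43909, annotated on the other strand across 1876 bases of Bhlhe41, was not matched in the table. The kit does not mark strand, so reads of Bhlhe41 and of an antisense transcript there cannot be told apart.

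Relatives and partners of the 4 genes were then counted in 6 lists. Of their 80 genes, 51 reached 10 TPM in any cell (63.75%) and 13 in at least 25 (16.25%), beside 42.5% and 10.6% of all genes. Of 20 small EF-hand calcium binders, 13 reached 10 TPM in any cell and 6 in at least 25, among them the calmodulin gene Calm2 (median 486 TPM). Calb2 and Pvalb, the calcium buffers calretinin and parvalbumin of other neurons, and Scgn, S100g, Rcvrn, S100a4 and Ocm were listed at 0 in every cell. Of the 8 other PAX genes, only Pax3 reached 10 TPM, in 3 cells (highest 171 TPM). Of 18 regulators that act with Pax6 in eye, forebrain and islet, 7 reached it in any cell. Maf, which is also a macrophage regulator, reached it in 120 cells (median 800 TPM), and Sox2, Rax, Otx2, Neurog2 and Eomes were listed at 0.

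Bhlhe40, the closest relative of Bhlhe41, was listed at 0 in all cells. Of 20 clock genes and related repressors, 17 reached 10 TPM in any cell and 2 in at least 25, the kinase gene Csnk1e (33 cells) and the period gene Per3 (32 cells). Of 11 other basic helix-loop-helix factors, 11 reached it in any cell and 3 in at least 25, namely Tfe3 (37 cells), Hif1a (32 cells) and Mitf (27 cells). Among the relatives of Smco1, Smco3 and Smco4 each reached 10 TPM in 1 cell and Smco2 in none.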

How the data were processed

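The deposited values are TPM per gene symbol for 126 cells, made by the authors with RSEM 1.2.19 on GRCm38 per the submitters' processing notes. The aligner, annotation release and filters were not given in the sources used here. Per the labels' protocols, cDNA came from the SMARTer Ultra Low kit, libraries from Nextera XT, and single reads of 51 cycles from a HiSeq2000, without molecular identifiers, and cells with little cDNA had been left out. Of 43280 rows, 27 whose symbols had become dates were left out. TPM summed to between 987622 and 999991 per cell and keeps no depth.

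Levels were log2(TPM + 1), detection was 10 TPM, and shares have Clopper-Pearson 95% intervals. A cell counts as having a neural gene where Sox2, Hes5, Nes, Fabp7 or Slc1a3 reached 10 TPM. Cells with at least 1000 genes were put into 4 clusters by Ward's method on 10 principal components of 2000 variable genes. A cluster took a name where its marker list had a median difference above 0, the other list one below 0, and at least 3 markers were at 10 TPM in 50% of its cells. Doublets were not called, since the data hold no raw counts. The text names the 4 members, the 5 neural genes, the 5 most and 2 least correlated genes of each member, neighbours, and genes of fixed lists; the 10 steadiest genes were named after their values were seen. Members and lists were chosen with earlier results of these data known. The calculation of differences and correlations was checked on simulated data with planted values. Python 3.11.15, numpy 2.4.6, pandas 2.3.3, scipy 1.17.1, scikit-learn 1.9.0 and matplotlib 3.10.9 were used.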

Additional observations from a re-analysis of the deposited data

How the results depend on the processing

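No paired analysis was possible because all cells belong to 1 group and carry no replicate numbers that pair them. The share of cells with a gene followed the threshold. At 100 TPM it was 59.5% for Bhlhe41, 21.4% for Pax6 and 15.9% for Smco1, and at 1 TPM it was 97.6% for Smco1. In cells with at least 3000 genes it was 100% for Calb1 and for Bhlhe41. The Calb1 difference by gene number reversed to 0.046 with the line at 4000 genes. Of the 5 genes most like each member, 3 were kept for Calb1, 3 for Pax6, 3 for Bhlhe41 and 2 for Smco1 in cells with at least 3000 genes. In protein-coding transcripts alone the Calb1 run was 9 bases instead of 32. Over 92 alternative values of the differences, 84 kept their sign and 8 changed it, and the mean levels stayed within 1 SD in all 24 alternatives. The cause was not tested. Depth is unknown, so values of 0 and near 1 TPM have no known precision.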

Other observations

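The regulators that mark microglia and macrophages were measured in the same cells as the 4 genes. Of 14 such regulators, 14 reached 10 TPM in any cell, 9 in at least 25 and 4 in at least 63. Of all genes, 42.5%, 10.6% and 2.92% did so. The 4 regulators were Maf (120 cells), Mef2c (median 157.5 TPM), Irf8 (71 cells) and Runx1 (70 cells). Sall1, a microglial transcription factor, reached 10 TPM in 41 cells and Spi1, which encodes the macrophage regulator PU.1, in 37. Calb1 and Bhlhe41 were at 10 TPM or more in more cells than any of these 14 genes. Pax6 was in more cells than any of them but Maf. The members were chosen with their wide detection known, so this order is a description.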
